A study of Mus musculus with 6 samples.

Results

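The neurotrophins and the GDNF family are secreted factors best known for keeping neurons alive and guiding their axons, and both families are also made in the tooth germ. The genes described here are 8 of the 18152 genes listed in the expression table. They were taken by their symbols, and all 8 were listed and had enough counts to be tested. They were the neurotrophin genes Bdnf (gene identifier 12064) and Ntf3 (18205), the neurotrophin receptor genes Ngfr (18053) and Ntrk2 (18212), the ligand gene Gdnf (14573), and the GDNF family receptor genes Gfra1 (14585), Gfra2 (14586) and Ret (19713).

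RNA was sequenced from the inner enamel epithelium (IEE) of the mandibular first molar (MM1) of mouse embryos at E18.5, with 3 libraries from control mice and 3 from conditional knockout (cKO) mice. The IEE is the sheet of dental epithelium that lies against the dental papilla, folds into the cusps and gives rise to the ameloblasts. The controls were Kdf1 fl/fl mice, which carry the floxed Kdf1 alleles without Cre and which the labels call WT, and the cKO mice were K14-Cre;Kdf1 fl/fl mice, in which Cre driven by the keratin 14 promoter deletes Kdf1 in epithelia. Both lines were on a C57BL/6J background, and the question was which genes differ in the IEE when epithelial Kdf1 is lost. The tissue was cut from frozen sections by laser capture microdissection, so cells along the border of the captured strip can be included, and whether a library holds 1 embryo or several is not given in the sources used here. The keratin 14 promoter is active in other epithelia too, so the embryos lacked Kdf1 outside the tooth as well.

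In the neurotrophin family, each ligand is cut from a longer precursor and binds a Trk receptor tyrosine kinase. BDNF and neurotrophin 4 (Ntf5 in the mouse table) bind TrkB, the product of Ntrk2, and NT-3 (Ntf3) binds TrkC (Ntrk3) above all. The p75 receptor, encoded by Ngfr, binds every neurotrophin, and in teeth it is a classical marker of neural crest derived mesenchyme and of nerve sheath cells, with a phase of expression in the dental epithelium. GDNF binds the membrane-anchored co-receptor GFRA1, neurturin (Nrtn) binds GFRA2, artemin (Artn) binds GFRA3 and persephin (Pspn) binds GFRA4, and each pair then engages the receptor tyrosine kinase RET. GFRA1 can also act with the adhesion molecule NCAM where RET is absent. The trigeminal axons that reach the tooth pulp after birth respond to several of these factors.

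The libraries held between 14713939 and 16675154 counts. Kdf1 had 836, 731 and 835 counts in the 3 controls and 0, 1 and 0 counts in the cKO libraries, so the targeted gene followed the labels in all 6 libraries. Levels of 1 gene across libraries are given as CPM, the counts scaled to a common library size after TMM normalisation. Where different genes are compared, levels are given as TPM, the authors' transcript numbers scaled by length. Replicates 1, 2 and 3 are named in this order throughout. In bulk tissue of this kind, fewer cells of a type and less RNA per cell cannot be told apart.

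By edgeR's quasi-likelihood test, 0 of the 8 genes met the criterion, a log2 fold change of 1 or more in either direction together with an adjusted p of 0.05 or less, which 0.432% of the 14131 tested genes met. At an unadjusted p of at most 0.05, 4 of the 8 (Bdnf, Ngfr, Gfra1 and Ret) were higher in the cKO libraries, against 13% of all tested genes that were higher and 24.5% that differed in either direction. All 8 had a log2 fold change above 0, against 49.5% of all genes, and the median over the 8 was 0.72, against -0.00 over all tested genes. The replicate number was then added as a block, because deviations of same-numbered libraries from their group means correlated, though weakly for number 1 (0.135). With the block, 3 of the 8 (Bdnf, Ngfr and Gfra1) met the criterion, all higher. The shares of all genes were 6.09% in either direction and 4.16% upward. DESeq2 without the block called 2 (Bdnf and Ngfr), against 6.94% of all genes and 5.05% upward. DESeq2 with the block called the 3 of the edgeR block fit, against 7.91% and 5.85%. Leaving out both libraries of 1 number from the block fit cost calls in each case. Ngfr alone passed without number 1, Ngfr and Gfra1 passed without number 2, and 0 of the 8 passed without number 3, where 0.392% of all genes were called, against 6.24% (4.09% upward) and 6.01% (4.02% upward) in the other two. The log2 fold changes without number 3 were 2.44 for Bdnf, 1.48 for Ngfr and 0.98 for Gfra1, against 2.07, 1.39 and 1.02 with every library. Bdnf missed the adjusted p in all 3 of these fits, at 0.0534, 0.0556 and 0.107.

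**Figure D1:**
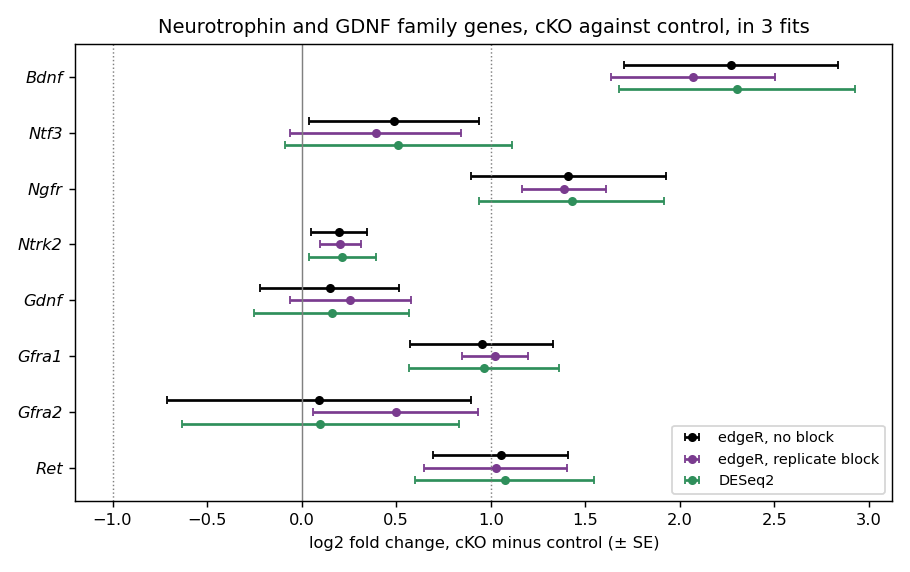
Log2 fold change (cKO minus control, x axis) of the 8 genes under edgeR without a block (black), edgeR with the replicate number as a block (purple) and DESeq2 (green). Points are estimates, bars are ± SE and dotted lines mark a log2 fold change of 1 in either direction. Bdnf, Ngfr, Gfra1 and Ret lie near or above 1 in all 3 fits, and the block shortens the bars of Ngfr from 0.52 to 0.22 and of Gfra1 from 0.38 to 0.17.

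The promoters of the 3 genes called in the block fit are shown because these genes were higher in the same comparison. Each is the stretch of 250 bases upstream of a transcription start, from RefSeq (GRCm38.p6), printed on the strand of the gene. Capitals mark TGACG, the core letters of the cyclic AMP response element, or GGGCGG, the GC-box, found on either strand, and these 2 motifs do not overlap here. Bdnf has 7 RefSeq starts in the table used, and the window printed was picked because it is the 1 of the 7 that holds TGACG, so its match is no finding. It lies at chr2:109692186-109692435 on the plus strand, the Ngfr window at chr11:95587699-95587948 on the minus strand and the Gfra1 window at chr19:58455399-58455648 on the minus strand.
Bdnf: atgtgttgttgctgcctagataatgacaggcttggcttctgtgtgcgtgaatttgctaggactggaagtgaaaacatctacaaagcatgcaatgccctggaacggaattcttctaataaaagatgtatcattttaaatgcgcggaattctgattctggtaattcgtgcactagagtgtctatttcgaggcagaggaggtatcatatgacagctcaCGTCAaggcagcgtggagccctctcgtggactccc
Ngfr: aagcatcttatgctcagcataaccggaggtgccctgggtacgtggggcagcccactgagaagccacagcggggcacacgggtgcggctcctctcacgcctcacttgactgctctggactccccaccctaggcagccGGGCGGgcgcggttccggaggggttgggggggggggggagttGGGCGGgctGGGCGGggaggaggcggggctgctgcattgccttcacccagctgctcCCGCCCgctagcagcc
Gfra1: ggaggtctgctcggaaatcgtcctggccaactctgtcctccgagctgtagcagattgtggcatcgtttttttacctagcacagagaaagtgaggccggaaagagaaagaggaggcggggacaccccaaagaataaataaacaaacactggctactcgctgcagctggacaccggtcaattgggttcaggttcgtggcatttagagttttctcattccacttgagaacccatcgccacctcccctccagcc
The printed Bdnf window held 1 TGACG match, and of the 6 Bdnf windows not printed 1 held GGGCGG at 2 places, 1 held it at 1 place and the other four held none of the motifs searched. The Ngfr window held 4 GGGCGG matches and no TGACG, and the Gfra1 window held neither. Among single promoter windows of the same length (32851 in all), 17.8% held TGACG, 1.55% the whole palindrome TGACGTCA, 32.7% GGGCGG, 12.4% TATAAA and 6.02% CACGTG. Windows were found for 6 of the 8 genes, and Ret and Gfra2 had none in the table.

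Bdnf, the TrkB ligand that supports sensory neurons, was close to the detection floor in the controls. It measured 1.07, 0.787 and 1.07 CPM in the control libraries and 8.86, 2.71 and 2.64 CPM in the cKO libraries. These values rest on 17, 13 and 17 counts against 140, 43 and 40 counts, and a count of 0 would allow up to 0.198 CPM. All 3 cKO libraries lay above all 3 controls, which was so for 14.5% of tested genes, while 30.7% had groups without overlap in either direction. The mean was 0.976 ± 0.164 CPM in the controls and 4.73 ± 3.57 CPM in the cKO group (SD, n = 3), a log2 fold change of 2.27 ± 0.57 (SE), or 4.82-fold. The edgeR adjusted p was 0.0842, the DESeq2 adjusted p was 0.00447, and with the replicate block the log2 fold change was 2.07 ± 0.44 with an adjusted p of 0.0347. The size rested in part on cKO replicate 1, which was 8.30 times its same-numbered control, whereas replicates 2 and 3 were 3.44 and 2.46 times theirs. Without cKO replicate 1 the log2 fold change was 1.46, with an adjusted p of 0.121.

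Ntf3, which encodes NT-3, gave no such separation. Its CPM values were 1.07, 1.21 and 1.14 in the controls and 2.47, 0.818 and 1.52 in the cKO libraries. The cKO libraries spanned the control range on both sides, with replicate 2 below every control. The log2 fold change was 0.49 ± 0.45, with an adjusted p of 0.538 by edgeR and 0.604 with the block.

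Among the receptors, Ngfr, the gene of p75, measured 22.8, 38.3 and 12.7 CPM in the controls and 92.7, 74.8 and 28.7 CPM in the cKO libraries. The groups overlapped, because cKO replicate 3 lay between control replicates 1 and 2. Each cKO library was nevertheless above the control of the same number, by 4.07, 1.95 and 2.26 times. Ngfr averaged 24.6 ± 12.9 CPM in the controls and 65.4 ± 33.0 CPM in the cKO group (SD, n = 3), a log2 fold change of 1.41 ± 0.52. Its adjusted p was 0.158 by edgeR, 0.0329 by DESeq2 and 0.0197 with the replicate block, where the log2 fold change was 1.39 ± 0.22.

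Ntrk2, the gene of TrkB, was the most abundant of the 8 in the controls by TPM and differed little between the groups. It stood at 150, 138 and 111 CPM in the controls and at 167, 154 and 136 CPM in the cKO libraries. Same-numbered libraries differed by 1.11, 1.12 and 1.23 times, all in the same direction, but the groups overlapped. The log2 fold change of 0.20 ± 0.15 had an adjusted p of 0.444, and 0.263 with the block. These values are per gene, so the full-length kinase form of TrkB and the truncated forms that lack the kinase are not separated.

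Gdnf, the ligand that acts through GFRA1 and RET, varied more among the controls than among the cKO libraries. It measured 4.14, 11.7 and 6.95 CPM in the controls and 7.97, 8.05 and 9.23 CPM in the cKO libraries. All 3 cKO values fell inside the control range. The log2 fold change was 0.15 ± 0.37, with an adjusted p of 0.834, and 0.26 with an adjusted p of 0.633 under the block.

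Gfra1, the co-receptor that holds GDNF at the membrane, measured 10.9, 24.8 and 10.7 CPM in the controls and 26.9, 40.0 and 23.0 CPM in the cKO libraries. Control replicate 2 was the only control that reached the cKO range, where it exceeded cKO replicate 3. Each cKO library was 2.46, 1.61 and 2.14 times the control of the same number. The mean was 15.5 ± 8.05 CPM against 30.0 ± 8.88 CPM (SD, n = 3), a log2 fold change of 0.95 ± 0.38 that missed the fold of the criterion and had an adjusted p of 0.18. The block gave 1.02 ± 0.17 with an adjusted p of 0.0206, so this gene sat on the fold threshold in both fits.

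Gfra2, the co-receptor of neurturin, varied more with the replicate number than with the genotype. It measured 3.64, 31.5 and 6.19 CPM in the controls and 13.0, 23.7 and 7.38 CPM in the cKO libraries. Replicate 2 was the highest library in both groups, and the cKO to control ratio was 3.58 in replicate 1, 0.751 in replicate 2 and 1.19 in replicate 3. The log2 fold change was 0.09 ± 0.81, with an adjusted p of 0.958. Without control replicate 2 it was 1.57, with an adjusted p of 0.171.

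Ret, the signalling receptor shared by all GDNF family ligands, was low in both groups. It measured 1.26, 1.51 and 1.07 CPM in the controls and 3.54, 1.95 and 2.51 CPM in the cKO libraries. All 3 cKO libraries lay above all 3 controls, as for Bdnf. The mean was 1.28 ± 0.221 CPM against 2.67 ± 0.809 CPM (SD, n = 3), a log2 fold change of 1.05 ± 0.36. The adjusted p was 0.139 by edgeR, 0.117 by DESeq2 and 0.131 with the block, so Ret did not pass in any of these fits.

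**Figure D2:**
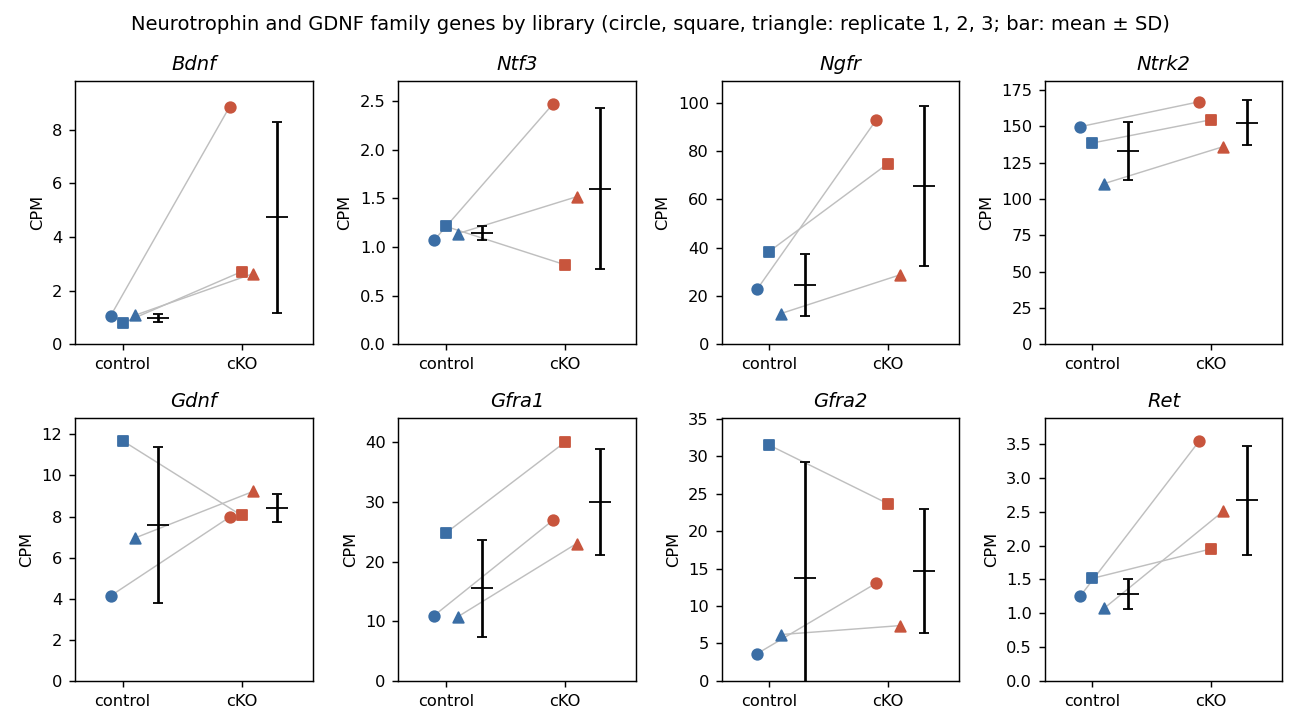
CPM (y axis, from 0) of each of the 8 genes in the 3 control (blue) and 3 cKO (red) libraries. Circles, squares and triangles are replicates 1, 2 and 3, grey lines join libraries of the same number, and black bars are the mean ± SD (the lower end for Gfra2 in the controls runs below 0 and is not drawn). Bdnf and Ret show no overlap between groups, Ngfr and Gfra1 are higher at the cKO end of all 3 lines but overlap, and Gfra2 is highest in replicate 2 of both groups.

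Per length, Ntrk2 was the most abundant of Ntrk2, Ngfr and Ntrk3 in the control IEE, at 32.8 ± 6.64 TPM (SD, n = 3), which placed it above 72.7% of listed genes. Ngfr followed at 13.7 ± 7.95 TPM, and the 2 ranges did not overlap in the controls. In the cKO group Ntrk2 stood at 38.7 ± 6.86 TPM and Ngfr at 37.9 ± 20.9 TPM, and their ranges overlapped. The share of Ngfr in the summed TPM of these 3 receptor genes was 24.8%, 36.2% and 20.2% in the controls and 48.3%, 44.0% and 31.0% in the cKO libraries. The share of Ntrk2 was 74.0%, 58.6% and 78.7% in the controls and 38.8%, 40.8% and 64.1% in the cKO libraries. Both shares overlapped between the groups in replicate 2 of the controls and replicate 3 of the cKO mice.

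Of the ligands, Bdnf and Ntf3 were minor transcripts. Ntf5, the gene of neurotrophin 4, made up 92.6% to 94.6% of the summed TPM of Bdnf, Ntf3 and Ntf5 in the controls and 76.0% to 92.4% in the cKO libraries. Its level was 34.7 ± 4.01 TPM in the controls and 31.3 ± 10.6 TPM in the cKO group, with a log2 fold change of -0.21 and an adjusted p of 0.681. Bdnf supplied 1.23%, 1.15% and 1.24% of this sum in the controls and 12.3%, 5.08% and 2.53% in the cKO libraries, with no overlap. Ntf3 supplied 4.22% to 6.24% and 5.06% to 11.8%.

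On the GDNF side, Gdnf was one of 3 ligands at similar levels. Its control mean of 3.57 ± 1.92 TPM overlapped that of Nrtn, at 5.72 ± 0.251 TPM, which in turn lay below Artn, at 7.63 ± 1.36 TPM. In the cKO group Nrtn was at 8.53 ± 1.90 TPM, Artn at 4.43 ± 2.39 TPM and Gdnf at 4.26 ± 0.45 TPM. Nrtn had a log2 fold change of 0.51 with an adjusted p of 0.301, and Artn one of -0.87 with an adjusted p of 0.226. Pspn and the more distant family member Gdf15 were too low to be tested. Among the co-receptors, Gfra1 (6.24 ± 3.65 TPM), Gfra2 (7.79 ± 9.07 TPM) and Gfra4 (6.27 ± 2.08 TPM) overlapped in the controls, and Gfra3 was at 0.537 ± 0.201 TPM. Ret, at 0.323 ± 0.091 TPM in the controls and 0.693 ± 0.253 TPM in the cKO group, stood below each of the co-receptors Gfra1, Gfra2 and Gfra4 in all 6 libraries.

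**Figure D3:**
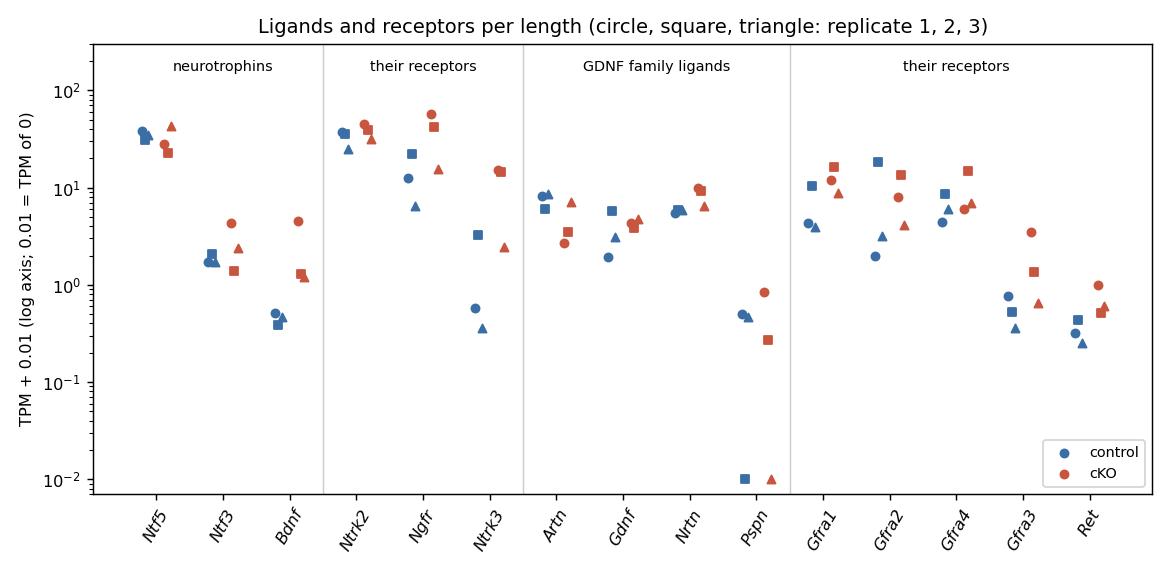
TPM (log axis, 0.01 added so that a value of 0 can be drawn) of 3 neurotrophins, the GDNF family ligands and receptors of both families in control (blue) and cKO (red) libraries, with replicates 1, 2 and 3 as circles, squares and triangles. Ntf5 and Ntrk2 are the highest ligand and receptor plotted in the controls, whereas Bdnf and Ret lie below 1 TPM in all 3 controls.

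Of the 90 other genes of the 2 pathways, 87 were listed and 80 were tested, and 0 met the criterion by edgeR. At an unadjusted p of at most 0.05, 14 were higher and 6 lower, or 25.0% of the 80 against 24.5% of all tested genes. Their median log2 fold change was 0.21. Every cKO library lay above every control in 11 of the 80 and below in 10, against 2053 and 2283 of the 14131 tested genes. With the replicate block, 6 were called, all higher (Ntrk3, Ncam1, Plat, Mmp9, Grb10 and Gab2), and DESeq2 called these and Sorcs1. These were 7.5% of the 80 under the block and 8.75% by DESeq2. Of all tested genes, 6.09% and 6.94% were called in either direction, and 4.16% and 5.05% upward. Without both libraries of replicate number 3 the block called 0 of the 80.

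Ntrk3, the gene of TrkC, measured 1.51, 6.72 and 0.884 CPM in the controls and 32.0, 33.5 and 6.06 CPM in the cKO libraries. Its log2 fold change was 2.96 ± 0.89 with an adjusted p of 0.116, and 3.12 with 0.0155 under the block. The groups overlapped, as cKO replicate 3 fell below control replicate 2. Ncam1, the adhesion molecule that can serve as a partner of GFRA1, measured 36.7, 46.2 and 24.6 CPM in the controls and 339, 129 and 89.5 CPM in the cKO libraries. These groups did not overlap, and the log2 fold change of 2.37 ± 0.52 had an adjusted p of 0.0714, or 0.0222 under the block.

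The other receptors of the neurotrophin list are sorting receptors, some of which bind neurotrophin precursors together with p75. Sort1, the gene of sortilin, was at 105 to 108 CPM in the controls and 83.3 to 92.7 CPM in the cKO libraries. Sorcs2 was at 38.2 to 58.5 and 21.7 to 34.4 CPM. Both were lower in every cKO library than in every control, as were 10 of the 80 pathway genes tested. Their adjusted p values were 0.149 and 0.108. Sorcs1 had a log2 fold change of 2.06 (adjusted p = 0.131), Sorcs3 of 1.67 (0.523) and Sorl1 of 0.18 (0.604). Among the GDNF receptors Gfra3 had a log2 fold change of 1.66 (adjusted p = 0.171) and Gfra4 of 0.51 (0.491), and Gfral was not tested.

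Of the remaining pathway genes, the 5 with the largest log2 fold changes were Mmp9, Grb10, Plat, Gab2 and Egr2. Mmp9, a protease that can cleave neurotrophin precursors among many other substrates, measured 46.1, 33.6 and 15.6 CPM in the controls and 761, 148 and 104 CPM in the cKO libraries (log2 fold change 3.41, adjusted p = 0.0841). Plat, the gene of tissue plasminogen activator, measured 12.1, 11.9 and 10.9 CPM against 58.0, 33.2 and 19.1 CPM (1.66, adjusted p = 0.0736). In both genes every cKO library lay above every control, as in 11 of the 80 pathway genes tested. Grb10, an adaptor that binds RET and the insulin receptor, had a log2 fold change of 2.21 (adjusted p = 0.0842), Gab2, a docking protein of receptor tyrosine kinases, of 1.24 (0.118), and the transcription factor Egr2 of 1.01 (0.306).

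Markers of other cell types moved in the same libraries. The 12 Schwann cell markers summed to 60.4 to 74.3 TPM in the controls and 46.8 to 85.2 TPM in the cKO libraries, with 6 of the 12 higher and 2 lower in TPM in every cKO library than in every control. Among all tested genes the groups did not overlap in CPM in 30.7%, with cKO above in 14.5%. By that measure, 2 of the 7 Schwann cell markers tested lay above and 2 below, and the rest of the 12 were too low to test. Of the 7 Schwann cell markers tested, 5 had a log2 fold change below 0, and the median was -0.28. Mbp, Erbb3 and S100b were the most abundant. Mbp, a myelin protein gene, measured 83.8, 60.2 and 86.2 CPM in the controls and 33.3, 36.1 and 47.8 CPM in the cKO libraries (log2 fold change -0.97, adjusted p = 0.0667 by edgeR and 0.0161 with the block). Ncmap, another myelin gene, was at 4.36 to 5.24 and 2.78 to 2.90 CPM. Sox10, which defines the lineage, was at 0.063, 0.061 and 0.063 CPM in the controls and 5.82, 0.503 and 0.527 CPM in the cKO libraries, with 1 count in each control, below the floor of 3 counts. S100b was at 0.753, 1.03 and 0.442 CPM and then 13.7, 4.97 and 3.30 CPM. Of the 7 tested, S100b alone was called under the block and by DESeq2, as higher in both. Of all tested genes, 4.16% and 5.05% were called higher in these fits. Mbp missed the fold of the criterion. In Sox10 and S100b cKO replicate 1 was the highest library. None of the 12 was at 0 in all controls or in all cKO libraries.

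Of the 15 dental papilla markers, 8 were higher in TPM in every cKO library than in every control and 0 were lower. By CPM, 9 of the 15 lay above without overlap. The groups did not overlap in CPM in 30.7% of all tested genes, with cKO above in 14.5%. The median log2 fold change of the 15 was 1.59, and 9 were called under the block, against 4.16% of all genes upward. The summed TPM of the 15, led by Col1a1, Col1a2 and Vim, ranged from 1919 to 8010 in the controls and from 4609 to 6282 in the cKO libraries. Twist1, a mesenchymal transcription factor, measured 9.29, 16.5 and 8.97 CPM and then 75.9, 45.8 and 41.9 CPM (adjusted p = 0.0498). Dental epithelium markers were lower in TPM in every cKO library in 8 of 14 genes, with a summed TPM of 14110 to 46044 in the controls and 5550 to 9453 in the cKO libraries. By CPM, 7 of the 14 were lower without overlap, as were 2283 of the 14131 tested genes. Amelx, Krt5 and Krt14 led this list and were present in every library. The largest part of the lower sum came from Amelx, whose mean was 17344 TPM in the controls and 294 TPM in the cKO group. Krt5 averaged 4128 and then 2420 TPM, and Krt14 2095 and then 824 TPM. Cdh1, the epithelial cadherin, measured 852, 650 and 1028 CPM and then 265, 281 and 350 CPM (adjusted p = 0.0498). It was the only 1 of the 14 past the criterion by edgeR without a block, and 4 of the 14 had a higher mean TPM in the cKO group. Epcam had a log2 fold change of -0.05 (adjusted p = 0.897), Shh of 0.27 (0.734), Msx2 of 0.23 (0.619) and Cldn1 of 0.17 (0.559). The part of these cell types in the values of Bdnf, Ngfr, Gfra1 and Ret was not tested.

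Neuron markers summed to 197 to 412 TPM in the controls and 115 to 208 TPM in the cKO libraries, led by Tubb3, Stmn2 and Gap43. The lower sum came from Tubb3, whose mean was 250.2 TPM in the controls and 107 TPM in the cKO group, while 6 of the 11 markers had a higher mean in the cKO group. Of the 4 tested, 3 had a log2 fold change above 0, and under the block Tubb3 was called lower (-1.28, adjusted p = 0.00847) and Gap43, a growth cone protein gene, higher (2.23, adjusted p = 0.0154). The block called 6.09% of all tested genes in either direction and 4.16% upward. Of these markers 7, among them Prph, Isl1 and Nefl, were too low to be tested in these libraries. Endothelial markers (led by Cdh5, Pecam1 and Emcn) summed to 167 to 229 TPM and then 219 to 675 TPM, markers of pericytes and smooth muscle (Acta2, Tagln and Rgs5) to 222 to 312 TPM and then up to 955 TPM, and immune markers (Fcer1g, Tyrobp and Cd68) to 59.8 to 121 and 114 to 376 TPM, each highest in cKO replicate 1. Stratum intermedium markers (Cyp26a1, Alpl and Enpp2) summed to 1880.4 to 2210.5 and 1088 to 1847 TPM, odontoblast markers (Col1a1, Dspp and Dmp1) to 896 to 5368 and 1571 to 2403 TPM, and skeletal muscle markers (Des, Ckm and Actc1) to 1.59 to 2.76 and 1.80 to 6.63 TPM, with Myod1 at 0 in all cKO libraries.

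**Figure D4:**
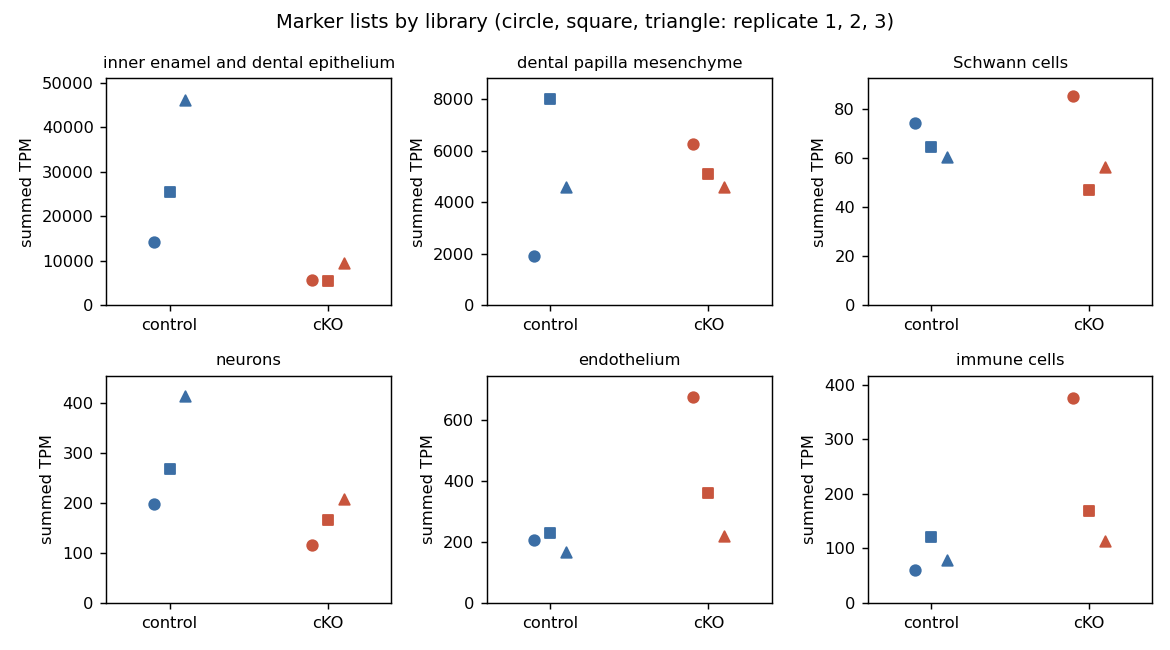
Summed TPM (y axis, from 0) of 6 marker lists in each control (blue) and cKO (red) library, with replicates 1, 2 and 3 as circles, squares and triangles. Endothelial and immune sums are highest in cKO replicate 1, and Schwann cell and dental papilla sums overlap between the groups. Dental epithelium sums are lower in all 3 cKO libraries, and Amelx has the highest control mean of that list.

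The genes whose profile over the 6 libraries was closest to each of the 8 were found by the root mean square difference of log2 CPM, with each gene centred on its own mean, among 13646 genes. Klf9 (0.18) and Lrrc32 (0.22) came closest to Bdnf, which itself had an SD of 1.18 on this scale. Ngfr was followed most closely by Hmcn1 (0.10) and Fbn1 (0.14), Gfra1 by Cd1d1 (0.08) and Tmlhe (0.11), and Ret by Trim12a (0.07) and Ptprd (0.10). Ecm1 (0.10) and Hlx (0.12) were nearest to Ntf3, Mast4 and Mtmr12 (both 0.03) to Ntrk2, Caskin1 (0.15) and Entpd7 (0.16) to Gdnf, and Dok6 and Shroom1 (both 0.33) to Gfra2. Dok6 is an adaptor that binds RET and stood in the pathway list. With 6 libraries many genes share a profile. Among the 8 themselves the lowest rank was that of Gfra1, at rank 125 of the neighbours of Gfra2 (0.66). Gfra2 in turn was at rank 3591 of the neighbours of Gfra1. The smallest difference among the 8 was that of Ntf3 and Ret, at 0.42.

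In the GENCODE vM21 annotation, Bdnf, Gfra1 and Ntrk2 overlap antisense genes (Gm45346, Gm16277, and Gm47423 with 4930415C11Rik). Ntrk2 also overlaps Gm34245 on the opposite strand and C630044B11Rik on its own strand. Whether strand was used in counting is not given in the sources used here, so reads of these 3 genes and of the genes that overlap them may not be separated. For C630044B11Rik, strand could not separate them.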

How the data were processed

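RNA of the IEE from 3 control and 3 cKO libraries was analysed from 1 deposited table of 18152 genes. The deposited estimated counts are the authors' unnormalised reads per gene (10.9% to 11.5% of values in a library were not whole), and they were rounded here. The deposited TPM values are the authors' length-scaled values, and the deposited FPKM values of the authors were not used. Columns of group means were not used either. Tools named in the submitters' processing notes are BWA 0.7.12, Picard 2.6.0 and StringTie. The genome build and the test of the study are not given in the sources used here, so gene coordinates are not printed.

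Genes with enough counts for filterByExpr (14131) entered edgeR 4.0.16 (R 4.3.3). Libraries were scaled by TMM (factors 0.950 to 1.03), and the groups were compared by the two-sided quasi-likelihood F-test of a robust fit, with p-values adjusted by Benjamini-Hochberg over every tested gene. The criterion, a log2 fold change of 1 or more in either direction with an adjusted p of 0.05 or less, is that of the study's appendix. DESeq2 1.42.0, limma 3.58.1, other scalings and filters, limma on log2(TPM + 1) and log2(TPM + 0.1), other thresholds and the omission of each library were alternatives, and block fits without both libraries of 1 number were added after seeing the data. The procedure was tested on simulated data. The floor of 3 counts is 0.182 to 0.198 CPM and, as PCR copies are not independent molecules, covers counting error only. P-values measure the spread between these libraries.

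Libraries of a group correlated at 0.950 to 0.980 and their counts varied by 35.4 to 77.3 times sampling noise, so none was a duplicate. Deviations of same-numbered libraries from their group means correlated at 0.135, 0.324 and 0.499, each over 0.1. Those of libraries with different numbers correlated at -0.410 to 0.144. The highest of these, control replicate 2 with cKO replicate 1, exceeded the same-numbered value of replicate 1. The numbers were read as pairs from these values, although number 1 is not set apart by them. The study names littermate pairs for another experiment only, and blocked fits are given where they change a call.

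The genes and lists were chosen with earlier results of these data known. Genes named are the 8 genes, Kdf1, the other ligands and receptors of both families (some are not reported here), any pathway gene past the criterion, the 5 other pathway genes with the largest absolute log2 fold change at a mean of at least 1 CPM in the higher group, and up to 3 genes with the highest TPM per marker list. Sox10, Ncmap, Twist1, Cdh1, Epcam, Shh, Msx2, Cldn1, Sort1 with its relatives and the neuron markers too low to test belong to these lists. All of these but Sort1 with its relatives and the neuron markers were singled out after their values were seen. The 2 nearest genes of each of the 8 were also named.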

Additional observations from a re-analysis of the deposited data

How the results depend on the processing

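Over all genes, 61 met the criterion, 980 by DESeq2, 1118 by DESeq2 with the replicate block, 6 by limma-voom, 7 by edgeR with the size factors of DESeq2 (1 higher and 6 lower, against 20 and 41), 9 by library size alone (2 and 7), 103 with no filter, 6 with at least 10 counts in every library, 860 with the replicate block, 31 by limma on log2(TPM + 1), 1372 at an unadjusted p with the fold change and 669 at an adjusted p of at most 0.1. Leaving out 1 library gave 1 to 465 (16 without control replicate 2, 465 without cKO replicate 3, 1 without any other), and the block without both libraries of number 1, 2 or 3 gave 885, 849 and 56. In the fit without a block, 70 genes had adjusted p values from 0.049 to 0.05. The cause of these moves was not tested.

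Of the 8 genes, 0 passed in the fit without a block, 2 by DESeq2, 3 by DESeq2 with the block, 3 with the replicate block, 1 and 2 in the block fits without replicate number 1 and 2, 3 at an unadjusted p with the fold change and 1 at an adjusted p of at most 0.1. Of the 80 pathway genes the counts were 0, 7, 8, 6, 7, 5, 8 and 4 in the same order, and 0 to 5 without 1 library each (5 without cKO replicate 3). Leaving out any 1 library called 0 of the 8.

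Of 168 log2 fold changes of the 8 genes under the alternatives, 150 kept direction and side of the criterion, 11 moved past it and 7 changed sign. Leaving out 1 library, Gdnf ran from -0.14 (without control replicate 1) to 0.60, and Gfra2 from -0.42 (without cKO replicate 2) to 1.57, with -0.36 without control replicate 1 and -0.27 without control replicate 3. In the block fit without replicate number 1, Ntf3, Gdnf and Gfra2 were -0.043, -0.068 and -0.11. The cause was not tested. With the replicate block, the pairing changed no call of the other 5 genes. Low counts limit Bdnf, Ntf3 and Ret, where each control library held 13 to 25 counts.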
